A study of Mus musculus with 8 samples.

Results

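The 10 genes described here, Atf4, Ddit3, Ddit4, Trib3, Chac1, Nupr1, Asns, Psat1, Phgdh and Sesn2, belong to the transcriptional response to amino acid shortage and related stresses that is run by the transcription factor ATF4. They were chosen by name: a probe counted for a gene if the array's gene name, or the current symbol of its accession, was that of the gene. All 10 were found, on 14 probes, among 16057 genes that could be tested. The comparison was made in IMCD3 cells, an established mouse epithelial line derived from the kidney's inner medullary collecting duct. Starved cells spent 48 h in medium lacking fetal calf serum, a treatment used to make them grow cilia. Unstarved cells were kept in medium with 10% fetal calf serum, had been diluted 1:10 on the day before collection and were not yet confluent, so serum and cell density differed together. The growth medium of both groups was DMEM with F12, a glutamine supplement (Glutamax) and antibiotics. Each group had 2 dishes, taken here as the 2 replicates, and each replicate pair was hybridised on 2 two-colour arrays, giving 4 arrays and 8 samples. Replicate 1 (arrays 1 and 3) carried starved RNA in Cy5 and replicate 2 (arrays 2 and 4) carried it in Cy3, so a difference between the replicates and an effect of the dye cannot be told apart.

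ATF4 is made when the initiation factor eIF2 is phosphorylated by one of its kinases, which slows general translation but favours the ATF4 reading frame through short open reading frames upstream of it. GCN2 (gene Eif2ak4) senses uncharged tRNA, PERK (Eif2ak3) senses unfolded protein in the endoplasmic reticulum, PKR (Eif2ak2) senses double-stranded RNA, and HRI (Eif2ak1) senses haem shortage and other stresses. ATF4 then binds C/EBP-ATF response elements, usually as a dimer with another bZIP protein, and raises genes for amino acid uptake, amino acid synthesis and tRNA charging, together with regulators that restrain growth. Much of the control of ATF4 is translational, and the arrays measured only RNA.

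The C/EBP-ATF element was looked for in RefSeq promoter windows (build GRCm38.p6) that run from 250 bases before to 50 bases after an annotated transcript start, because these genes are known for it. All 10 genes had a window. The search letters were TGATGNAA and, for the other strand, TTNCATCA; 1304 of 32851 windows of all genes held a match (3.97%). Chac1, Nupr1, Asns and Trib3 held one each, and the other 6 genes held none in this window. The bases upstream of the start are shown for Chac1 (chr2:119350992-119351241, plus strand), Nupr1 (chr7:126625471-126625720, minus strand) and Asns (chr6:7693210-7693459, minus strand), in which the match begins at positions -193, -110 and -23. Ddit4 (chr10:59951771-59952020, minus strand), which had no match, is shown beside them because its transcript had the largest ratio of the 10. For Trib3 (chr2:152344028-152344057, minus strand) the match begins at position 15 after the start, and only 30 bases around it are shown. Capitals mark the match, and each sequence is given 5′ to 3′ on the strand of its gene.
Chac1: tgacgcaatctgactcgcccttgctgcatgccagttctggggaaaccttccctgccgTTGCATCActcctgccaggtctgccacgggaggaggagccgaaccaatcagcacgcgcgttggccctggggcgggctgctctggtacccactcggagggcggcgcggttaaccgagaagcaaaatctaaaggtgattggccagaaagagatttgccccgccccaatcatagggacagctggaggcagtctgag
Nupr1: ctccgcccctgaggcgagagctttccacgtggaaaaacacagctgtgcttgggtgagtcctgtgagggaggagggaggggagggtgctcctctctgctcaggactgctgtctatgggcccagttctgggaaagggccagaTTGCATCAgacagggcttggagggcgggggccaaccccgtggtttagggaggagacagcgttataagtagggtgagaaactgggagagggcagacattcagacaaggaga
Asns: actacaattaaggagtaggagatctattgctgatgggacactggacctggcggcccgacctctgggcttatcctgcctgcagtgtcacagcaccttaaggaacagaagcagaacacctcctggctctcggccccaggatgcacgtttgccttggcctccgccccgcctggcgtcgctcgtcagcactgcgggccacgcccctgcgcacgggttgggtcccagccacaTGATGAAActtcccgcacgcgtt
Ddit4: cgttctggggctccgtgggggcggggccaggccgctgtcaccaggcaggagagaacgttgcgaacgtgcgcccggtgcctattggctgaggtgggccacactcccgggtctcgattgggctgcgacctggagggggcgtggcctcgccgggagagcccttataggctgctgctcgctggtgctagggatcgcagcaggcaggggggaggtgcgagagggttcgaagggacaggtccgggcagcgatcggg
Trib3: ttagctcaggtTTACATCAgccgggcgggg
The matches in Chac1 and Nupr1 read TTGCATCA, the one in Asns reads TGATGAAA and the one in Trib3 reads TTACATCA. A match is a description of the letters, not of binding.

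Each value below is the log2 of starved divided by unstarved signal after loess normalization, given as the mean of 2 replicates with the moderated standard error (SE) of limma. A gene is called higher or lower where limma's Benjamini-Hochberg adjusted p over all genes tested was under 0.05. Levels are normalised intensities on a linear scale, after a further normalization between arrays. They are comparable between samples for one probe but not between probes. The 2 arrays of a replicate correlated at 0.991 across genes in both replicates, and arrays of different replicates at 0.824 to 0.830. Of 16057 genes, 5052 were called (31.5%), 2904 higher (18.1%) and 2148 lower (13.4%). The cells were checked against markers: 13 of 13 kidney epithelial and collecting duct markers were well above background in at least 1 group, among them Cdh16, Pax8 and Aqp2, and Avpr2 was so on all 4 arrays only in starved cells. Col3a1, Dcn, Lum, Pdgfra, Pdgfrb and Thy1 of 9 fibroblast markers, and Pecam1, Cdh5, Kdr, Tek, Emcn and Cldn5 of 7 endothelial markers, were not. The remaining endothelial marker, Flt1, was well above background in both groups, with a mean level of 2195 in unstarved and 1080 in starved cells. It was called lower (-1.02). The fibroblast markers Col1a1 (-1.01, called lower) and Col1a2 (-0.11, not called) were also well above background in both groups. Of 7 leukocyte markers 6 were measured, and their summed level was 4301 to 4411 in unstarved and 9223 to 10086 in starved samples, with Aif1 (1.49) and Csf1r (1.44) higher, Ptprc not well above background in starved cells and Adgre1 in neither group. The fibroblast marker Postn cleared background in unstarved cells only. The summed fibroblast level was 1559 to 1690 in unstarved and 1191 to 1260 in starved samples, and the endothelial one 2685 to 2942 and 1653 to 1846. These sums also take in the markers of each list that were not well above background, so part of them is background signal. Among the 13 kidney epithelial and collecting duct markers 5 were called higher, 1 lower (Krt8, -0.64) and 7 did not pass. The part of other cells in the results below was not tested. Each sample is RNA of a whole dish, so fewer cells with a transcript and less of it per cell cannot be told apart.

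Starved cells held more of 9 of the 10 transcripts, and 0 fell, against 18.1% of all genes tested called higher and 13.4% called lower. Ddit4, Chac1 and Nupr1 rose about alike, by 5.22-fold, 5.15-fold and 5.06-fold, followed by Trib3 (3.84-fold), Asns (2.37-fold) and Ddit3 (2.05-fold). Sesn2 (1.75-fold), Atf4 (1.63-fold) and Psat1 (1.46-fold) rose less, and Phgdh did not pass. The median log2 ratio of the 10 was 1.14, against 0.01 for all genes tested. A rise of at least 2-fold in both replicates was seen for 6 of the 10, against 2.20% of all genes, and of at least 4-fold in both for 3, against 0.237%. For all 10 genes the 4 starved samples lay above the 4 unstarved ones, which held for 28.3% of all genes, and all 10 had a ratio above 0 on all 4 arrays, which held for 36.2%. The genes were named with earlier results of these arrays known, so these counts are a description.

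**Figure D1:**
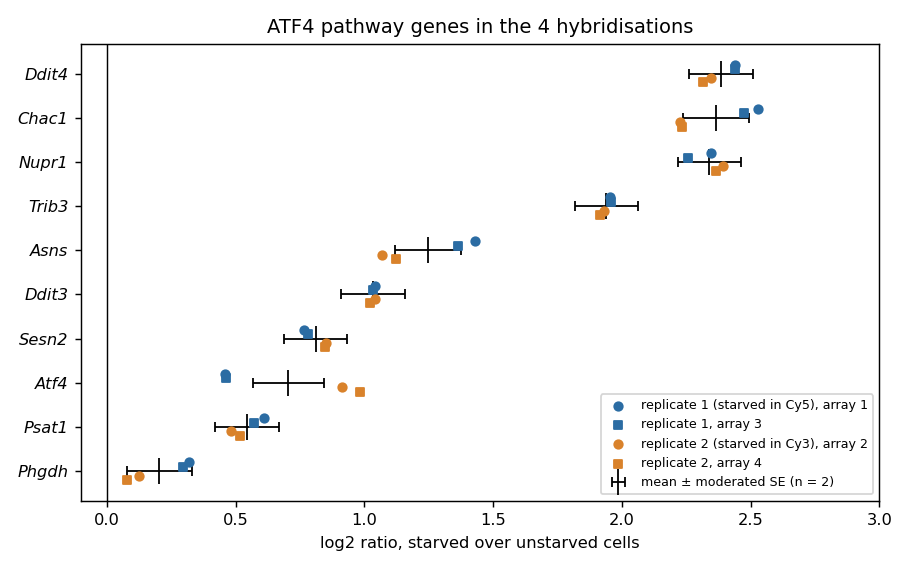
Log2 ratio of starved over unstarved cells (x axis) for the 10 genes on each of the 4 arrays, blue for replicate 1 and orange for replicate 2, with the mean and the moderated SE (n = 2) in black. Ddit4, Chac1, Nupr1 and Trib3 lie between 1.92 and 2.53 on every array, the 2 replicates of Atf4 lie apart, and Phgdh lies closest to 0.

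Atf4 encodes the transcription factor itself. Its level in unstarved samples was 18344 and 18405 in replicate 1 and 16890 and 16560 in replicate 2, and in starved samples 25215 and 25389 in replicate 1 and 31786 and 32742 in replicate 2. The starved samples were higher on every array, and more so in replicate 2. The log2 ratio was 0.46 in replicate 1 and 0.95 in replicate 2, with a mean of 0.70 ± 0.14 SE (n = 2, limma adjusted p = 8.87e-04). The gap of 0.49 between replicates was the widest of the 10 genes, whose mean gap was 0.17, while arrays of one replicate differed by at most 0.09 for any of them.

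Ddit3 encodes CHOP, a C/EBP-family factor that is induced by ATF4 and takes part in stress-induced cell death. Unstarved samples had levels of 3934 and 3766 in replicate 1 and 3976 and 4186 in replicate 2, and starved samples 8087 and 7701 in replicate 1 and 8175 and 8511 in replicate 2. The groups were about 1 doubling apart on all 4 arrays, with no overlap. Both replicates gave a log2 ratio close to 1 (1.04 and 1.03), with a mean of 1.03 ± 0.12 SE (n = 2, adjusted p = 7.33e-06).

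Trib3 encodes a pseudokinase that binds ATF4 and AKT and feeds back on the pathway. Its brightest probe gave 6706 and 6045 in replicate 1 and 6381 and 5574 in replicate 2 of unstarved cells, and 25951 and 23497 in replicate 1 and 24351 and 21040 in replicate 2 of starved cells. The lowest starved sample was 3.14-fold above the highest unstarved one. The log2 ratio was 1.94 ± 0.12 SE (n = 2, adjusted p = 5.71e-09), from 1.96 and 1.92 in the replicates. A dimmer Trib3 probe gave 1.58, from 1.37 in replicate 1 and 1.79 in replicate 2, the same direction with a smaller ratio.

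Nupr1 encodes a small chromatin-associated stress protein. It rose from 19861 and 21384 in replicate 1 and 23547 and 23184 in replicate 2 to 100857 and 102234 in replicate 1 and 123635 and 119307 in replicate 2. No starved sample came within 4.28-fold of the highest unstarved one. Its log2 ratio was 2.34 ± 0.12 SE (n = 2, adjusted p = 8.81e-10), and 19 genes of the 16057 had a higher one.

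Chac1 encodes an enzyme that breaks down glutathione inside the cell. Levels of 7705 and 7854 in replicate 1 and 9439 and 9830 in replicate 2 of unstarved cells stood against 44421 and 43611 in replicate 1 and 44179 and 46176 in replicate 2 of starved cells. The starved samples lay within a narrow band, so that the gap between the replicates' log2 ratios (2.50 and 2.23) followed the unstarved levels. The mean was 2.36 ± 0.13 SE (n = 2, adjusted p = 1.14e-09).

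Ddit4, also called REDD1, restrains the growth kinase complex mTORC1 through the TSC proteins, and is known to answer also to low oxygen and glucocorticoids. Its level was 27755 and 30928 in replicate 1 and 40029 and 40813 in replicate 2 of unstarved cells, and 150479 and 167682 in replicate 1 and 203260 and 202811 in replicate 2 of starved cells. Both groups had lower levels in replicate 1, and the ratio was about the same in both. The log2 ratio was 2.38 ± 0.12 SE (n = 2, adjusted p = 7.30e-10), from 2.44 and 2.33.

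Sesn2 encodes sestrin 2, a leucine-binding protein that restrains mTORC1 when leucine is short. Its brightest probe gave 9150 and 9361 in replicate 1 and 8763 and 9019 in replicate 2 of unstarved cells, against 15557 and 16084 in replicate 1 and 15793 and 16208 in replicate 2 of starved cells. The samples of each group lay close together and the groups did not overlap. The log2 ratio was 0.81 ± 0.12 SE (n = 2, adjusted p = 9.63e-05), and the other probe gave 0.60, from 0.50 and 0.71.

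Asns encodes asparagine synthetase, a classical target of ATF4 that makes asparagine from aspartate and glutamine. It rose from 40288 and 39032 in replicate 1 and 54115 and 47725 in replicate 2 to 108575 and 100368 in replicate 1 and 113637 and 103975 in replicate 2. The unstarved samples of replicate 2 were higher than those of replicate 1, and the ratio there was smaller. The log2 ratio was 1.25 ± 0.13 SE (n = 2, adjusted p = 1.49e-06), from 1.40 and 1.10.

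Phgdh and Psat1 encode the enzymes of the first and the second step of serine synthesis from a glycolytic intermediate. Psat1 had levels of 38532 and 39669 in replicate 1 and 42079 and 43129 in replicate 2 of unstarved cells, and of 58791 and 58919 in replicate 1 and 58730 and 61772 in replicate 2 of starved cells. This was a modest rise with no overlap, at a log2 ratio of 0.54 ± 0.12 SE (n = 2, adjusted p = 0.00283), from 0.59 and 0.50.

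The Phgdh level was 121397 and 128010 in replicate 1 and 138429 and 140233 in replicate 2 of unstarved cells, against 151468 and 157144 in replicate 1 and 151034 and 147884 in replicate 2 of starved cells. Starved samples were higher by little, at a log2 ratio of 0.20 ± 0.13 SE (n = 2, adjusted p = 0.239) with a 95% interval of -0.06 to 0.47. The other Phgdh probes gave 0.19 and 0.24, also small, and the groups overlapped on the latter. That interval lies below the intervals of Asns (0.97 to 1.52) and Chac1 (2.09 to 2.63), and overlaps that of Psat1 (0.28 to 0.81); differences between genes were not tested.

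**Figure D2:**
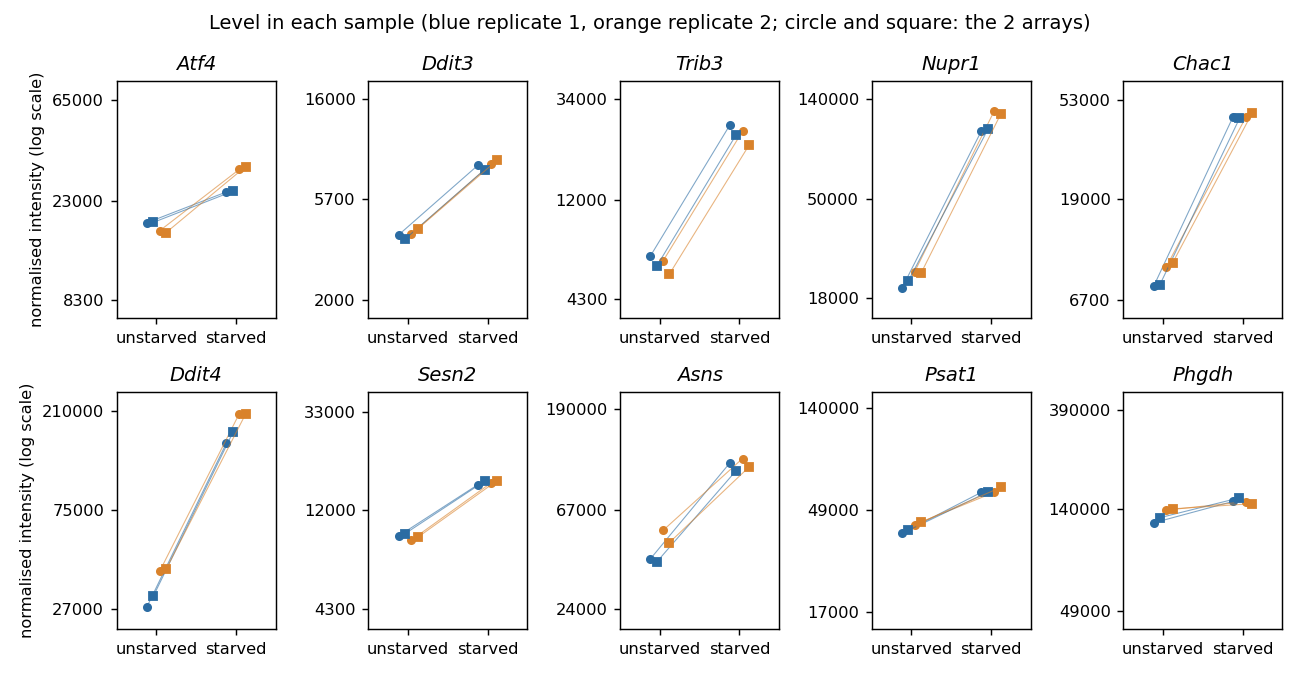
Normalised intensity of each gene's brightest probe (y axis, log scale spanning the same fold range in every panel) in unstarved and starved samples, with lines joining samples of one array; blue is replicate 1 and orange replicate 2. The slope is steep for Nupr1, Chac1 and Ddit4 and nearly flat for Phgdh, and starved samples lie above unstarved ones in all 10 panels.

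The probes lie, by the array design (build mm8), on chromosome 15 from 80083904 to 80083963 for Atf4, on chromosome 2 from 119045695 to 119045754 for Chac1, and on chromosome 10 from 59345095 to 59345154 for Ddit4. The Nupr1 probe lies on chromosome 7 from 126414612 to 126414671, the Asns probe on chromosome 6 from 7625194 to 7625253 and the Psat1 probe on chromosome 19 from 15972499 to 15972558. The Ddit3 probe spans 304 bases of chromosome 10, from 126698411 to 126698714, more than the probe's own length. The brightest probe is on chromosome 2 from 152029060 to 152029119 for Trib3, on chromosome 4 from 131764135 to 131764194 for Sesn2 and on chromosome 3 from 98398580 to 98398639 for Phgdh. The files do not say whether these are exonic, coding or untranslated bases.

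Paralogs of the 10 genes were mostly higher too. The count was 7 higher and 0 lower of 9 measured, and the median log2 ratio 0.60. Against this and each list count below stand 18.1% of all genes tested called higher and 13.4% called lower. The lists share genes: Atf5 and Cebpg are counted again among the stress factors below, and Sesn3 among the other ATF4 targets. Atf5, a close relative of Atf4 that is also under translational control, rose most (1.20 ± 0.12 SE), and Nupr1l, the relative of Nupr1, had 0.82. Sesn1 (0.78), which is known as a p53 and FOXO target, rose beside Sesn2 (0.81), and Sesn3 had 0.22 (adjusted p = 0.226). Trib2 (0.75), Trib1 (0.47) and Ddit4l (0.60) rose as well. Chac2, which unlike Chac1 is constitutive in most cells, had 0.25 (adjusted p = 0.183). Cebpg, a dimer partner of ATF4, rose by 0.39. These pairs are set side by side, and the differences within them were not tested.

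Upstream of ATF4, transcripts of the eIF2 kinases moved little except for PERK. Eif2ak3 rose (0.66 ± 0.13 SE, adjusted p = 7.48e-04), while Eif2ak4 had 0.04 (adjusted p = 0.821), Eif2ak2 -0.01 (0.974) and Eif2ak1 -0.24 (0.168). Of 14 measured genes of the kinases and of eIF2 control, 3 were higher and 1 lower, near the shares among all genes (median 0.04). Ppp1r15a and Ppp1r15b, whose products recruit the phosphatase that resets eIF2, rose by 0.39 and 0.38, the former from 0.11 in replicate 1 and 0.66 in replicate 2, and Eif2s1, which encodes the phosphorylated subunit, fell (-0.35). The calls of Ppp1r15a, Ppp1r15b and Eif2s1 were all lost with Agilent's processed signals (adjusted p = 0.0883, 0.0523 and 0.0651), which left 1 gene of the list higher and 0 lower. Phosphorylation was not measured.

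Other bZIP and stress factors rose widely. Of 12 measured, 11 were higher and 0 lower (median 0.65), and Tfeb had 0.26 (adjusted p = 0.204). Cebpa, 1 of the 11, was well above background on 1 of 4 arrays in unstarved cells and entered through the starved group; with the filter in both groups the count was 10. Fos, an immediate early gene, had the largest ratio (2.20 ± 0.16 SE, from 2.64 and 1.77). Cebpb (1.62), Atf3 (1.35) and Atf5 followed, all of which can pair with or act downstream of ATF4. Among other genes reported as ATF4 targets 13 of 18 were higher and 2 lower (median 0.63). Klhl24 (2.27 ± 0.13 SE), Vldlr, a lipoprotein receptor (2.16), Fgf21, a stress hormone (1.48), and the autophagy receptor gene Sqstm1 (1.31) rose most. The 2 that fell were Tnfrsf10b, a death receptor (-0.55), and Pmaip1, a BH3-only protein (-0.47), while Bbc3, another BH3-only gene of the list, rose (0.62, adjusted p = 0.00113; named after its value was seen). Fgf21 was dim, and its ratio was 1.73 with a normexp offset of 10 in place of 50 and 2.14 with Agilent's processed signals.

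Amino acid genes were split. Of 16 measured transporter genes 8 were higher and 3 lower (median 0.27). Slc6a9, a glycine transporter (2.13 ± 0.12 SE), Slc7a11, the cystine-glutamate exchanger (1.59 ± 0.13 SE), Slc38a2, a neutral amino acid transporter (0.94), and Slc6a6, a taurine transporter (0.85), rose most. Slc7a11 was dim, and its ratio was 1.80 with a normexp offset of 10. With Agilent's processed signals it was 2.13, where Slc6a9 had 2.10. Slc7a7 (-0.54), Slc7a6 (-0.49) and Slc43a2 (-0.41) fell, and a random block for replicate ended the Slc43a2 call (adjusted p = 0.0553). Slc43a2 was dim too, with -0.50 at an offset of 10 and -0.65 with Agilent's processed signals. Slc7a5, the leucine transporter subunit that is often listed with Slc3a2 as an ATF4 target, had -0.07 (adjusted p = 0.707), while Slc3a2 rose by 0.48; both were picked after their values were seen.

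Enzymes of amino acid synthesis and one-carbon metabolism other than the 3 above went both ways, with 7 of 19 higher and 3 lower (median 0.00). Gpt2, a mitochondrial alanine transaminase (1.33 ± 0.12 SE), Pck2, mitochondrial phosphoenolpyruvate carboxykinase (1.21), and Cbs, cystathionine synthase (1.07), rose most. Psph, the last enzyme of serine synthesis, rose by 0.64, from 0.97 in replicate 1 and 0.31 in replicate 2. Cth, which acts after Cbs on the way to cysteine, fell (-0.50), as did Bcat1 (-0.35). The Bcat1 call was lost with Agilent's processed signals (adjusted p = 0.0582) and with the mean of all its probes (0.0980).

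Cytosolic aminoacyl-tRNA synthetases, which charge tRNA with amino acids, were mostly not called: 5 of 19 were higher, 2 lower and 12 did not pass (median 0.17). The share called higher was 26.3%, against 18.1% of all genes tested, and 13.4% of all genes were called lower. The 4 highest were Sars (0.81), Cars (0.77), Aars (0.69) and Nars (0.42). Rars (-0.41) and Farsa (-0.37) fell; with the mean of all its probes Farsa had -0.14 (adjusted p = 0.406), and 1 of its 3 probes had the opposite sign. Without array 1, 4 genes of this list were called lower in place of 2.

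Genes of the endoplasmic reticulum that answer to ATF6 and XBP1, the other arms of the unfolded protein response, went the other way. Of 23 measured, 11 were lower and 2 higher (median -0.32). Manf (-0.78 ± 0.12 SE), Hyou1 (-0.77), Creld2 (-0.57) and Pdia4 (-0.57) fell most, and Hspa5, the chaperone BiP, fell by 0.56 on the log2 scale. Dnajb9 (0.49) and Derl3 (0.41) rose. Xbp1 itself had -0.07 (adjusted p = 0.714); its splicing, which activates it, was not measured.

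**Figure D3:**
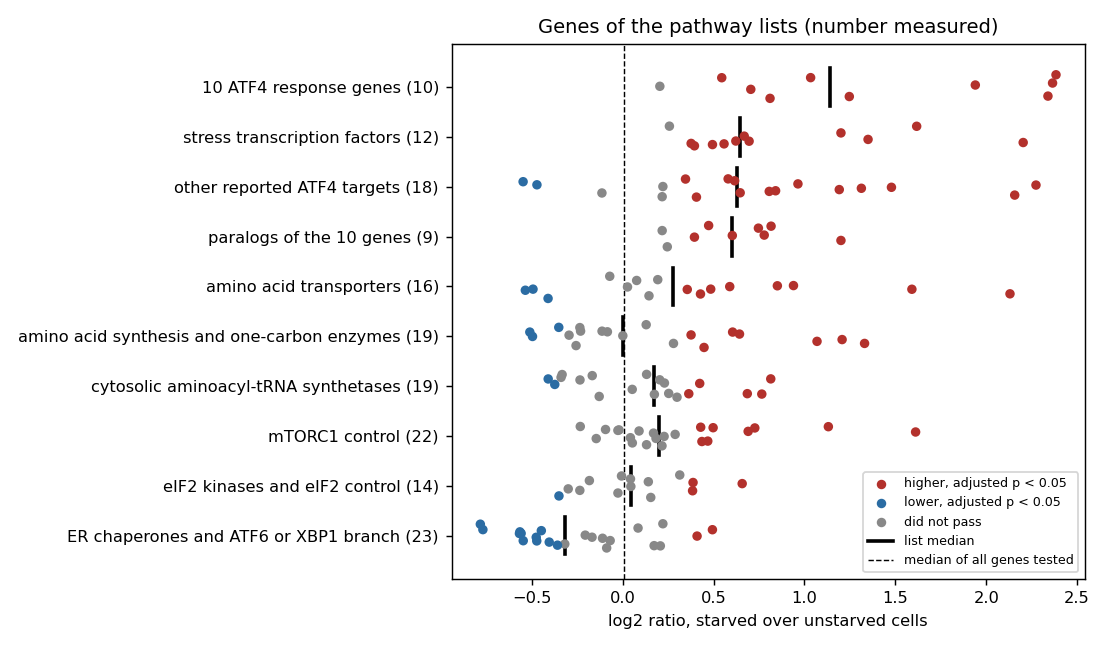
Log2 ratio of starved over unstarved cells (x axis) for every measured gene of each pathway list (rows, number measured in brackets); red dots were called higher, blue lower and grey did not pass, the black bar is the list median and the dashed line the median of all genes tested. The 10 genes, the stress factors and the other ATF4 targets lie mainly to the right with medians of 1.14, 0.65 and 0.63, and the chaperone list lies to the left with a median of -0.32.

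The promoter windows were read against these ratios. Across 10513 tested genes with a window, 274 held TGATGNAA on either strand; 27.4% of those were called higher, against 18.9% of the 10239 without it, and their median log2 ratios were 0.07 and 0.01. The stricter letters TGATGCAA (TTGCATCA on the other strand), a subset of the former, occurred in 74 genes, of which 33.8% were called higher. Over the lists of stress factors, synthesis enzymes, transporters, synthetases and other targets, without the 10 genes, 16 held TGATGNAA: 11 rose, 1 fell and 4 did not pass. Of 47 genes of these lists with a window and no match 25 rose, 4 fell and 18 did not pass. No test was made of these shares.

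Sites outside the 10 are shown for the list genes with a match that had the largest ratios and for the one that fell: Vldlr (chr19:27216809-27216838), Fgf21 (chr7:45615611-45615640), Atf3 (chr1:191183425-191183454) and Slc7a11, which held 2 matches (chr3:50443661-50443690 and chr3:50443642-50443671), all of which rose, and Slc7a7 (chr14:54418067-54418096), which fell. Each is 30 bases of build GRCm38.p6 on the strand of its gene with the match in capitals.
Vldlr: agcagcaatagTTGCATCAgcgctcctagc
Fgf21: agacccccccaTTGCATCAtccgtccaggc
Atf3: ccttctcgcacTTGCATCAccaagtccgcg
Slc7a11, upstream match: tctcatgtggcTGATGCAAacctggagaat
Slc7a11, downstream match: acctggagaatTTGCATCAtcatgcagccc
Slc7a7: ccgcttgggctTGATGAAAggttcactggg
The Vldlr, Fgf21 and Atf3 sites all read TTGCATCA, as in Chac1 and Nupr1, and Slc7a11 held it once on each strand. Slc7a7 held TGATGAAA, as in Asns, and elsewhere in its windows TGATGCAA, and its transcript fell. Got1, Gars, Iars and Tars also held a match and did not pass.

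The endoplasmic reticulum stress element, the letters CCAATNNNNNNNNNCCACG or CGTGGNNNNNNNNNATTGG, was searched in the same windows for contrast and does not overlap the C/EBP-ATF letters in definition. It occurred in 39 of 32851 windows (0.119%) and in 0 of the 10 genes. Of 19 chaperone-list genes with a window 9 held it, of which 6 fell, Derl3 rose, and Canx and Syvn1 did not pass. Of the 10 without it 3 fell, 1 rose and 6 did not pass. Among all tested genes with a window 13.3% were called lower, and these shares were not tested. None of the 19 (0) held TGATGNAA. Examples are Hspa5 (chr2:34772020-34772049) and Creld2 (chr15:88819515-88819544), which fell, and Derl3 (chr10:75893237-75893266), which rose.
Hspa5: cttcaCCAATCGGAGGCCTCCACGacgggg
Creld2: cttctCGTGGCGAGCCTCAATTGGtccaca
Derl3: tctacCGTGGGACTTCCCCATTGGctagcc
The Hspa5 match reads on the strand of the gene, and those of Creld2 and Derl3 read on the other strand.

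**Figure D4:**
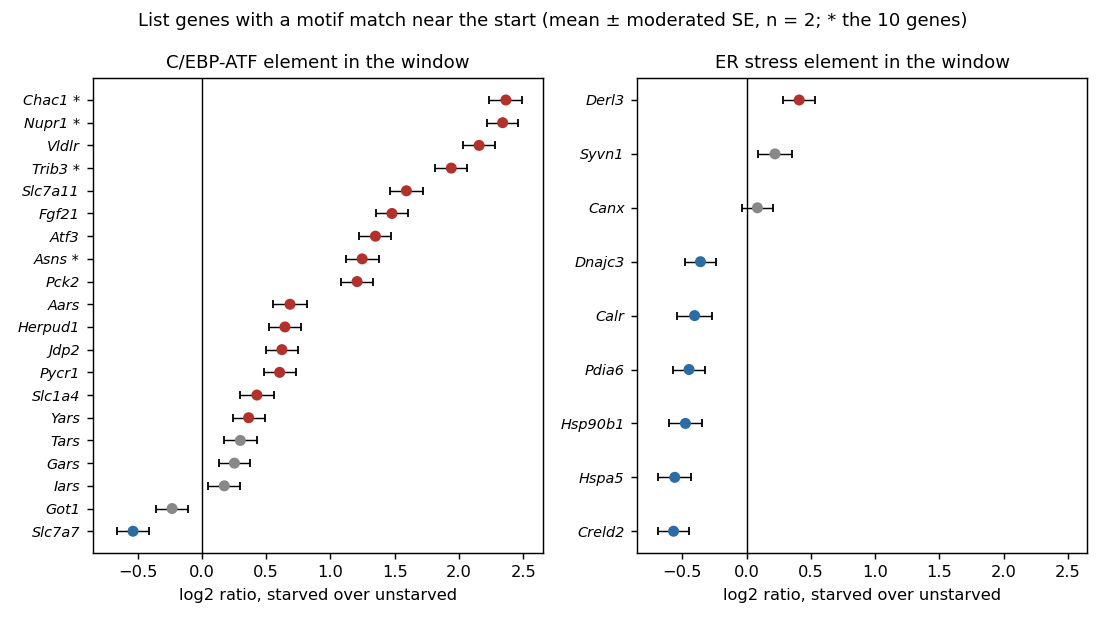
Log2 ratio with its moderated SE (n = 2, x axis) for list genes whose promoter window held the C/EBP-ATF letters (left) or the endoplasmic reticulum stress letters (right); red was called higher, blue lower, grey did not pass, and a star marks the 10 genes. The left panel runs from -0.54 (Slc7a7) to 2.36 (Chac1), and the right panel from -0.57 (Creld2) to 0.41 (Derl3).

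The calls of the less changed genes rested on the loess step. With median centring of each array in its place, 4 of the 10 genes were called higher, Ddit4 (2.01), Chac1 (2.16), Nupr1 (2.03) and Trib3 (1.79), against 0.828% of all genes under that setting. Asns, Ddit3, Sesn2, Atf4 and Psat1 kept a positive ratio there without passing, and Phgdh had -0.22 (adjusted p = 1.00). Under the same setting 0 chaperone genes were called lower and 0 synthetase, synthesis or eIF2 genes in either direction. The count called higher fell from 11 to 1 for the stress factors and from 13 to 3 for the other ATF4 targets. It fell from 8 to 2 for the transporters and from 7 to 0 for the paralogs. Cebpb, Atf3, Atf5 and Sqstm1 lost their calls, while Slc6a9 (1.90), Slc7a11 (1.59), Fos (2.08), Klhl24 (2.23), Vldlr (1.97) and Fgf21 (1.47) kept theirs. The 3 settings that assume other pairs of arrays or a dye term called Phgdh higher with an unmoved ratio, and called 45.7%, 45.1% and 45.6% of all genes higher. Their error is the spread between arrays of the same replicate, not between replicates.

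**Figure D5:**
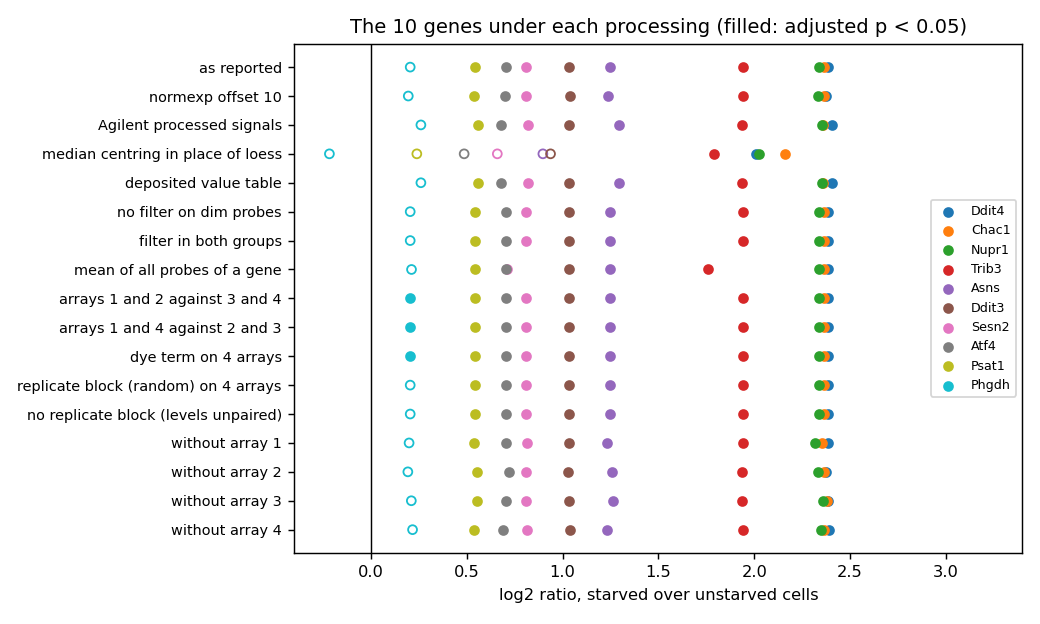
Log2 ratio (x axis) of the 10 genes as reported and under each alternative processing (rows), one colour per gene, filled where limma's adjusted p was under 0.05. The 4 largest ratios are filled in every row, and median centring is the row with 6 open circles.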

How the data were processed

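RNA of starved and unstarved IMCD3 cells was compared on Agilent two-colour arrays. The deposited intensity values (spot mean, local background median and processed signal) were written by Agilent Feature Extraction 9.5.3.1 according to the submitters' processing notes, and per the file headers the array design uses build mm8; both samples of an array share 1 file, and each sample's channel was taken from its dye label. The deposited value table of intensity, of unstated scaling, served as an alternative. In limma 3.58.1 (R 4.3.3), mean signals underwent normexp background correction with offset 50 (which lowers the ratios of dim genes), then loess within each array, without control and outlier-flagged spots; 0 spots were saturated. Of 41174 probes, 24598 were well above background on all 4 arrays of a group and were kept; names came from a RefSeq gene table (GRCm38.p6), and 8058 probes kept the array's name. The brightest probe stood for its gene. Levels of single samples also underwent quantile normalization of the mean log intensities between arrays (limma's Aquantile). The statements on overlap and the summed marker levels rest on these levels, and the ratios do not use that step. Ratios of the 2 arrays in a replicate were averaged, and the 2 resulting values fitted with lmFit and eBayes, two-sided, where 15.1 prior degrees of freedom carry most of the error. All 4 arrays share 1 slide and 1 scan.

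Replicates follow the titles; the series text speaks of a dye swap within each pair, which the dye labels do not show, so other pairings were run. A ratio pairs the samples of one array, as the series text states; samples sharing a number deviated from the mean of their group with a correlation of -0.297, and carry opposite dyes. The series text calls the replicates biological. The 10 genes, the pathway lists and the rule for named genes (up to 4 called genes a direction and list, by size, with the eIF2 kinases and paralogs) were chosen with earlier results of these data known. One called gene of the synthesis list is not reported here.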

Additional observations from a re-analysis of the deposited data

Results flagged for a closer look

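Among the 4 starved samples, the Psat1 level of array 4 (61772) stood apart from the other 3 (58730 to 58919): its gap to the nearest was 0.9365 of the group's whole range on the log2 scale. Of 20 groups of 4 samples looked at (10 genes in 2 groups) this was the 1 that stood apart. Chance gives about 1 in 20 for independent samples. That rate does not hold here, because the 4 samples are 2 replicates on 2 arrays each and all genes share the same samples. Without array 4 Psat1 kept its call.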

How the results depend on the processing

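Of 16 alternatives with a test, median centring in place of loess lowered the count of the 10 genes called higher, to 4 from 9, while the 3 with other array pairs or a dye term gave 10; 0 were lower in any. Calls over all genes were 249 and 14092 to 14286 in these settings, against 5052. It left Atf4 (0.49, adjusted p = 1.00), Ddit3 (0.94, 0.570), Asns (0.90, 0.644), Psat1 (0.24, 1.00) and Sesn2 (0.66, 1.00) below the threshold, and 46 of the 58 other named genes lost their calls. The median of all genes was -0.08 there. Pairing arrays 1 and 2 against 3 and 4, arrays 1 and 4 against 2 and 3, or a dye term called Phgdh at an unmoved 0.20 (adjusted p = 7.34e-04, 2.31e-04 and 1.03e-04). In these last 3 settings the error is the spread between arrays of the same replicate. Their p-values do not measure the spread between replicates. Why median centring lowered the calls was not tested. With a replicate block (random) on 4 arrays, and with no replicate block, 9 of the 10 genes were higher, as reported; the block ended the calls of Ppp1r15a and Slc43a2 among named genes. Leaving out each array in turn also gave 9, with Atf4 between 0.69 and 0.72; leaving out a replicate gives a ratio without a test. The list counts were recomputed under these settings after seeing the data. Signal did not limit the 10 genes, which were well above background in all samples.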

Other observations

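Sestrin 2 and REDD1 act on mTORC1, and 8 of 22 measured genes of mTORC1 control rose and 0 fell, against 18.1% of all genes called higher. Deptor, which encodes an inhibitor bound to the complex (1.61 ± 0.13 SE, n = 2, limma adjusted p = 8.21e-08), and Rragd, a Rag GTPase that tethers it to lysosomes (1.13), rose most. Rragd was dim, and its ratio was 1.32 with a normexp offset of 10 and 1.67 with Agilent's processed signals. Fnip1 (0.73) and Flcn (0.69), partners that act on the Rag GTPases, followed. Deptor was also called with median centring (1.59, adjusted p = 0.0181), the 1 gene of this list that was. Transcripts of the core subunits Mtor (0.22), Rptor (0.13) and Mlst8 (-0.23), named after their values were seen, did not pass.

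The 3 genes outside the 10 whose ratios on the 4 arrays lay closest to the mean of the 10 (1.36) were Arsa, which encodes a lysosomal sulfatase (1.36, at a distance of 0.022), Naprt, an enzyme of NAD synthesis (1.38, 0.054), and Dcdc2a, a doublecortin-domain protein (1.39, 0.068). Distances are Euclidean over 4 log2 ratios.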
